A study of Arabidopsis thaliana with 8 samples.

Results

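Stearoyl-ACP desaturase AT3G02630 and the acyl-ACP thioesterases FaTA (AT3G25110) and FATB (AT1G08510) act at the end of fatty acid synthesis in the plastid. Each of the 3 genes had a single probe set that the platform annotation assigns to it alone, out of 22746 probe sets that are not controls, 13513 of which carry a single gene name: 258485_at for AT3G02630, 257814_at for FaTA and 261722_at for FATB. No probe set shared with another gene listed any of them. All 3 passed the filter on low signal on all 8 arrays.

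The arrays, Affymetrix ATH1, were hybridised with target from 8 day old Arabidopsis thaliana seedlings of accession Ws-0, 2 biological replicates in each of 4 groups. Of these groups, 3 came from seedlings carrying 35S:LEC2-GR, either without treatment or after 1 h or 4 h with dexamethasone, and the other consisted of wild-type seedlings after 4 h with dexamethasone. LEC2 (LEAFY COTYLEDON2) is a B3-domain transcription factor of the maturing embryo, and its fusion to the glucocorticoid receptor is held inactive until the hormone is supplied. The 35S promoter drives the fusion broadly in the plant rather than in the embryo alone. How many transgenic lines or how many seedlings per sample were used is not given in the sources used here, and the treated line has no wild-type counterpart at 1 h, nor the untreated line one without hormone.

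Plastids build fatty acids on acyl carrier protein (ACP) in cycles that mostly end at palmitoyl-ACP or stearoyl-ACP. A soluble stearoyl-ACP desaturase puts the first double bond into stearoyl-ACP, which gives oleoyl-ACP, the precursor of most unsaturated fatty acids of leaves and seed oil. Thioesterases then cut the acyl chain from ACP, so that it can leave the plastid and be built into membrane lipids, surface lipids or, in seeds, triacylglycerol. FatA enzymes prefer oleoyl-ACP, and FatB enzymes prefer saturated chains, palmitoyl-ACP above all.

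The deposited values are MAS5 signals on a linear scale, and every array had been scaled to the same trimmed mean of 500.05, with array medians from 170.1 to 191.1. Replicates correlated at 0.969 to 0.980 across tested probe sets. The instrument records put the wild-type and uninduced arrays first in the order of scans and the 1 h and 4 h arrays last, and each group was scanned as a block, so in all 5 comparisons group and order cannot be told apart. The hybridisation time was filled in for the wild-type and uninduced arrays and empty for the 1 h and 4 h arrays. That split coincides with the groups wherever the treated line is compared with wild type or with the uninduced line. A comment in the record of 4 h replicate 2 speaks of high background on part of the image. The 3′ signal of the GAPDH control, divided by its 5′ signal, ran from 1.59 on that array to 3.37 on 1 h replicate 1. The summed signal of 6 photosynthetic markers showed green tissue on every array, at 183382 to 189494 in the uninduced line, 132987 to 158304 at 1 h, 108835 to 119918 at 4 h and 118184 to 122522 in wild type. That of 4 root markers was 10342 to 10912 at 4 h and 12139 to 13907 on the other 6 arrays; of these markers PYK10 was lower at 4 h than on the other arrays, AT5G17820 higher, AT4G30170 overlapped, and AT3G49960 was at 43 or less everywhere. None of 10 seed markers had a probe set of its own. In seedlings measured whole, fewer cells of a type and less RNA per cell cannot be told apart.

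The desaturase AT3G02630 had the largest response of the 3 genes. Its signal was 892.8 and 683.9 in the uninduced line, 1093.4 and 1176.6 at 1 h, 2660.8 and 2779.4 at 4 h, and 1147.9 and 1231.1 in wild type. Both 4 h arrays stood above all others, both uninduced arrays stood below all others, and the 1 h and wild-type arrays interleaved. The means were 788.3 ± 148 (SD, n = 2) uninduced, 1135 ± 58.8 at 1 h, 1190 ± 58.8 in wild type and 2720 ± 83.9 at 4 h.

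**Figure D1:**
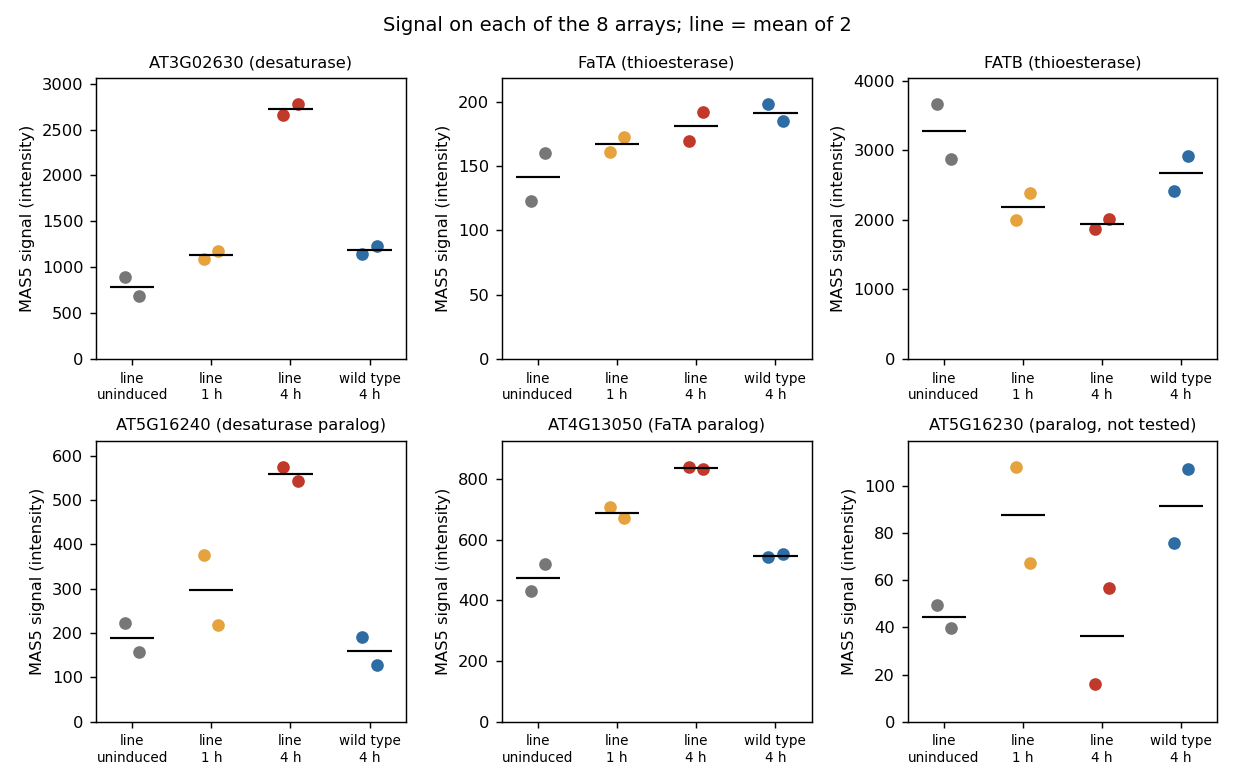
MAS5 signal (linear intensity, axis from 0) of the 3 genes in the upper row and of 3 paralogs in the lower row, 1 point per array and a line at the mean of each group of 2. AT3G02630 reached 2660.8 and 2779.4 at 4 h against 1147.9 and 1231.1 in wild type, FaTA stayed between 122.5 and 198.3, and FATB was highest in the uninduced line.

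Against treated wild type, AT3G02630 was higher at 4 h by 1.16 on the log2 scale (SE 0.15, limma adjusted p = 0.000147), a 2.24-fold change with a 95% interval of 1.79 to 2.81. This comparison asks what the fusion adds to dexamethasone. Without untreated wild type, it also takes in any difference between the line and wild type before treatment. Log2 changes here are differences of log2(signal + 45), which understate the change of weak signals, and a call is a limma p, adjusted by the Benjamini-Hochberg method over all 15026 tested probe sets, under 0.05. Of the 3 genes 1 was called higher and 0 lower, where 3.42% of tested probe sets were called higher and 3.21% lower. The change of AT3G02630 ranked 253 among all increases. Leaving out each of the 4 arrays compared in turn gave values from 1.12 to 1.21 and adjusted p-values from 0.00266 to 0.00591. The root marker sum was lowest at 4 h, where this gene was highest. Against wild type, the root marker PYK10 was lower at 4 h, and AT4G30170 and AT5G17820 were higher. The part of root tissue in the result was not tested.

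Against the uninduced line, AT3G02630 was higher at 4 h by 1.74 (SE 0.15, limma adjusted p = 4.28e-07), or 3.34-fold. Here 18.8% of tested probe sets were called higher and 16.8% lower, so calls were common, and 1 of the 3 genes was called in each direction. A probe set called higher in both comparisons of the 4 h line was less common, at 2.36% of those tested, and AT3G02630 was among these. Both comparisons share the 4 h arrays.

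The rise of AT3G02630 fell mostly between 1 h and 4 h. From 1 h to 4 h it rose by 1.23 (SE 0.15, limma adjusted p = 4.97e-05), where 10.3% of probe sets were called higher and 9.34% lower, and the other 2 genes were not called. At 1 h it stood 0.51 above the uninduced line (SE 0.15, limma adjusted p = 0.0304), with 9.5% of probe sets called higher and 7.16% lower. This early call ended without uninduced replicate 2, where the value was 0.33 (adjusted p = 0.247), without 1 h replicate 1 (adjusted p = 0.0622) and without 1 h replicate 2 (adjusted p = 0.12).

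Wild type with dexamethasone was also above the uninduced line for AT3G02630, by 0.58 (SE 0.15, limma adjusted p = 0.00922). In that comparison, which mixes hormone, time and transgene, 16.8% of probe sets were called higher and 14.3% lower, and AT3G02630 was the 1 gene of the 3 that was called. The call ended without uninduced replicate 2, where the value was 0.40 (adjusted p = 0.108), and without wild-type replicate 2 (adjusted p = 0.0773). In order of level, the uninduced line came first, then the line at 1 h and wild type, whose arrays overlapped, and then the line at 4 h.

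**Figure D2:**
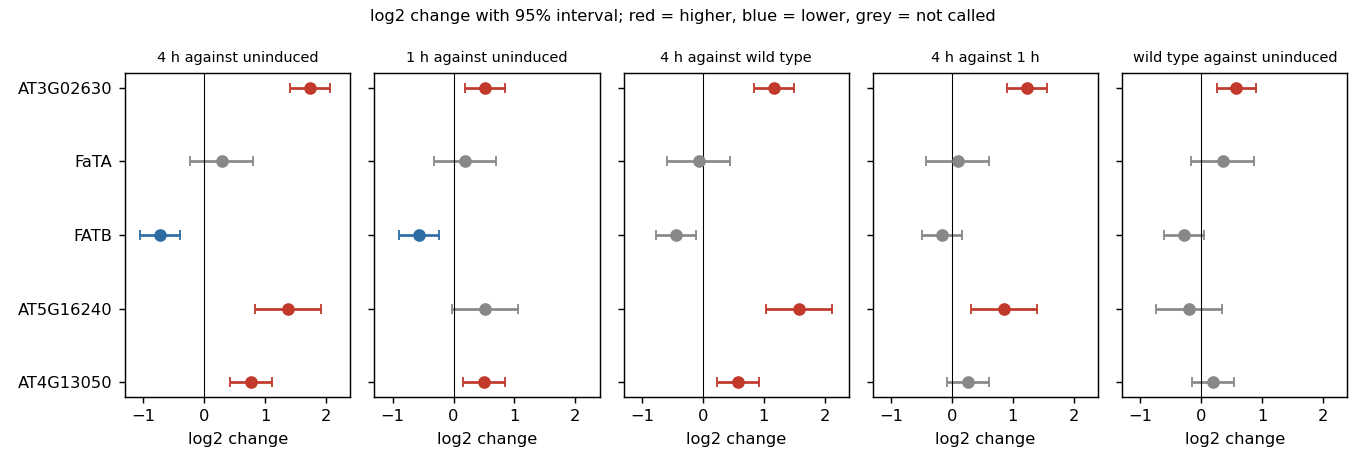
Log2 change of signal with its 95% interval (bars) for the 3 genes and 2 tested paralogs in the 5 comparisons; red points were called higher, blue lower and grey were not called. AT3G02630 was called higher in all 5, FATB was called lower in both comparisons of the treated with the uninduced line, and FaTA was called in none.

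FATB, the thioesterase for saturated chains, went the other way. Its signal was 3665.2 and 2879.9 in the uninduced line, 1992.2 and 2390.1 at 1 h, 1871.9 and 2012.8 at 4 h, and 2418.6 and 2915.4 in wild type. The treated line lay below the uninduced line on all 4 arrays, and the 1 h and 4 h arrays overlapped each other. Wild type overlapped the uninduced line and lay above both groups of the treated line.

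At 4 h FATB had fallen by 0.73 from the uninduced line (SE 0.16, limma adjusted p = 0.0017), to 0.603 times its level, with a 95% interval of 0.479 to 0.758. That call held when any of the 4 arrays was left out (adjusted p = 0.00204 to 0.0337). At 1 h it was already lower by 0.57 (log2 change -0.57, SE 0.16, limma adjusted p = 0.0192), a call that rested on uninduced replicate 1 (adjusted p = 0.199 without it) and on 1 h replicate 1 (adjusted p = 0.144 without it). Between 1 h and 4 h the log2 change was -0.17, not called (95% interval -0.50 to 0.17).

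The difference of FATB between the 4 h line and wild type was -0.44 on the log2 scale, with a 95% interval of -0.77 to -0.11 and an adjusted p of 0.119 in limma. It was not called. Both 4 h arrays lay below both wild-type arrays, but with so few arrays per group such a separation is weak evidence of a difference. The share of all tested probe sets that separate in this way was not computed. Wild type against the uninduced line gave -0.29 (95% interval -0.62 to 0.04, adjusted p = 0.183). FATB was thus called lower against one control and not called against the other. The photosynthetic marker sum, like FATB, was highest in the uninduced line. That sum was 108835 to 119918 at 4 h and 118184 to 122522 in wild type. The part of green tissue in the fall of FATB was not tested.

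FaTA, the thioesterase for oleoyl chains, showed no called difference. Its signal was 122.5 and 160.3 in the uninduced line, 160.6 and 172.9 at 1 h, 169.7 and 192 at 4 h, and 198.3 and 184.7 in wild type. The uninduced arrays were the lowest, and the 4 h arrays overlapped those of both 1 h and wild type. These signals are close to the 40th percentile of the arrays, at most 119.1, which was the lower limit for testing, and the table holds no detection calls.

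The log2 change of FaTA was 0.28 at 4 h (adjusted p = 0.399) and 0.19 at 1 h (adjusted p = 0.666) against the uninduced line, and -0.07 at 4 h against wild type (adjusted p = 0.939, limma throughout). Its 95% interval against wild type ran from 0.668 to 1.36-fold and against the uninduced line at 4 h from 0.852 to 1.74-fold. A change in signal of the size seen for AT3G02630 at 4 h lies outside both intervals. The constant added before taking logs shrinks the change of signals as weak as those of FaTA. Whether these signals exceed background is unknown, so the intervals cannot exclude a change of that size in the transcript. Wild type stood 0.35 above the uninduced line (adjusted p = 0.303), and 4 h stood 0.09 above 1 h (adjusted p = 0.842).

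**Figure D3:**
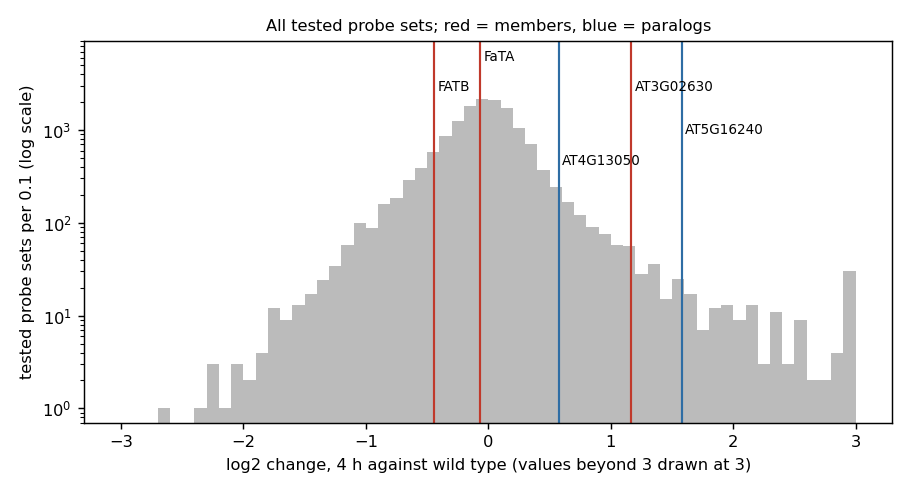
Number of tested probe sets (log axis) by log2 change at 4 h against wild type in steps of 0.1, with red lines at the 3 genes and blue lines at 2 paralogs. AT3G02630 at 1.16 and AT5G16240 at 1.58 lie in the right tail, AT4G13050 at 0.57 on its shoulder, and FaTA at -0.07 and FATB at -0.44 in the bulk.

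Of the paralogs with a probe set of their own, a desaturase and a thioesterase were called higher at 4 h than in either control. AT5G16240, another acyl-ACP desaturase, had signals of 222.6 and 157.3 in the uninduced line, 377.1 and 219.1 at 1 h, 575.5 and 542.8 at 4 h, and 191.1 and 128 in wild type. Both 4 h arrays were above all others, and the uninduced and wild-type arrays overlapped. Against wild type it was higher by 1.58 (SE 0.25, limma adjusted p = 0.000909), rank 141 among all increases, and against the uninduced line by 1.38 (SE 0.25, adjusted p = 0.000555). Both calls held when any single array was left out. From 1 h to 4 h it rose by 0.86 (adjusted p = 0.0267), a call that needed 1 h replicate 2 and both 4 h arrays (adjusted p = 0.103 to 0.228 without one of them). Unlike AT3G02630 it was not called in wild type against the uninduced line (-0.20, adjusted p = 0.593), nor at 1 h (0.52, adjusted p = 0.191), and whether the paralogs differ there was not tested.

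AT4G13050, the paralog of FaTA, had signals of 430.5 and 520 uninduced, 708 and 672 at 1 h, 841.3 and 833 at 4 h, and 542.1 and 553.4 in wild type. The groups did not overlap, and the 4 h arrays were the highest. It was higher by 0.77 at 4 h (SE 0.16, limma adjusted p = 0.00158) and by 0.50 at 1 h (adjusted p = 0.0438) against the uninduced line. Against wild type it was higher by 0.57 (SE 0.16, limma adjusted p = 0.0452), which no longer passed when any single array of the 4 was dropped (adjusted p = 0.176 to 0.228). The 1 h call was lost without uninduced replicate 1 or without either 1 h array (adjusted p = 0.0885 to 0.238).

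AT5G16230, a further desaturase of the family, was at 16.1 to 108.1 on the 8 arrays, under the 40th percentile on each, and was not tested. Of the 10 listed acyl-ACP desaturases and thioesterases, 6 had a probe set of their own. The listed desaturases AT2G43710 and AT1G43800 had none and were not analysed here, so the values cover only part of the desaturase family. In the gene order of RefSeq assembly TAIR10.1, AT3G02630 follows directly on AT3G02620 and AT3G02610, which are also acyl-ACP desaturase genes; the annotation gives them a probe set in common and none of their own, and whether the probe set of AT3G02630 also takes up their transcripts was not tested.

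Of 74 genes listed for fatty acid synthesis, modification and assembly, 13 had a probe set of their own, and 12 were tested, the 3 genes above among them. All lists were chosen with earlier results of these data known, so their counts and medians are descriptive and no independent test. For membrane desaturases, triacylglycerol assembly, wax elongation and WRI1, the regulator of the pathway, no listed gene had one, so these steps were not analysed here. Against wild type at 4 h, 3 of the 12 were called higher and 0 lower, where 3.42% and 3.21% of all tested probe sets were; these 3 were acyl-ACP desaturases or thioesterases, and 2 of them remain among the 9 listed genes other than AT3G02630, FaTA and FATB. Among these calls, that of AT4G13050 was close to the threshold (limma adjusted p = 0.0452). The median log2 change was 0.25 for the 12 and 0.27 for the 9, against -0.02 over all tested probe sets. Against the uninduced line at 4 h, 5 were higher and 1, FATB, lower, or 4 and 0 of the 9, where 18.8% and 16.8% of all were. The median there was 0.24 for the 12 and 0.20 for the 9, against -0.01 over all. At 1 h 3 were higher and 1 lower, or 2 and 0 of the 9, against 9.5% and 7.16% of all. From 1 h to 4 h, 4 were higher and 0 lower, or 3 and 0 of the 9, against 10.3% and 9.34% of all. In wild type against the uninduced line 3 were higher and 0 lower, or 2 and 0 of the 9, against 16.8% and 14.3% of all. The median in that comparison was 0.049 for the 12 and -0.096 for the 9, against 0.026 over all.

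Upstream of the desaturase, none of the 6 listed and tested genes of acetyl-CoA supply and chain building was called against wild type in limma. Of all tested probe sets, 3.42% were called higher there and 3.21% lower, so the lack of calls among 6 genes says little about them. Of the 6, 2 had an unadjusted limma p under 0.05, and the share of all probe sets under that limit was not computed. AT2G34590, a subunit of plastid pyruvate dehydrogenase, differed by 0.23 from wild type at 4 h and AT4G16155, the dihydrolipoyl dehydrogenase of that complex, by -0.19, neither called (limma adjusted p = 0.46 and 0.635). The plastid-encoded accD, a subunit of acetyl-CoA carboxylase, had signals of 81.1 and 120.4 uninduced, 141.3 and 63.5 at 1 h, 59.5 and 105 at 4 h, and 50.1 and 36.1 in wild type. It lay above the 40th percentile on 2 of the 8 arrays only, and its log2 change of 0.51 from wild type at 4 h had a 95% interval of -0.31 to 1.33 (adjusted p = 0.595). Of the 3 tested fatty acid synthase genes, AT5G10160, a hydroxyacyl-ACP dehydratase, stood 0.32 above wild type (adjusted p = 0.272) and AT1G24360, the ketoacyl-ACP reductase, 0.27 above it (adjusted p = 0.235). AT1G24360 was called higher at 4 h than at 1 h (0.35, limma adjusted p = 0.0498), a call lost when any single array was dropped (adjusted p = 0.0998 to 0.226).

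AT2G22230, the other hydroxyacyl-ACP dehydratase, is named here after its values were seen. Its signal was 1674.5 and 1617.2 uninduced, 1656 and 1888.6 at 1 h, 2613 and 2509.8 at 4 h, and 2251.3 and 2233.7 in wild type. It was higher than in the uninduced line both at 4 h (0.62, limma adjusted p = 0.00166) and in wild type (0.44, adjusted p = 0.0201), the latter no longer called when any single array was dropped, and differed by 0.19 between them (adjusted p = 0.557). From 1 h to 4 h it rose by 0.52 (adjusted p = 0.0112), which no longer passed without 1 h replicate 1 (adjusted p = 0.085) or 4 h replicate 1 (adjusted p = 0.0732).

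AT3G57280, FAX1, which carries fatty acids out of the plastid, had signals of 1211 and 1460.7 in the uninduced line and of 1873.8 to 2045.1 on the other 6 arrays. It was higher than in the uninduced line at 1 h (0.50, limma adjusted p = 0.0208), at 4 h (0.58, adjusted p = 0.0041) and in wild type (0.54, adjusted p = 0.00715), and differed by 0.03 between 4 h and wild type (adjusted p = 0.95). Without uninduced replicate 1 the adjusted p-values of these 3 calls were 0.177, 0.0538 and 0.0809. The 1 h call also ended without either 1 h array, and the wild-type call without wild-type replicate 1 (adjusted p = 0.053).

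**Figure D4:**
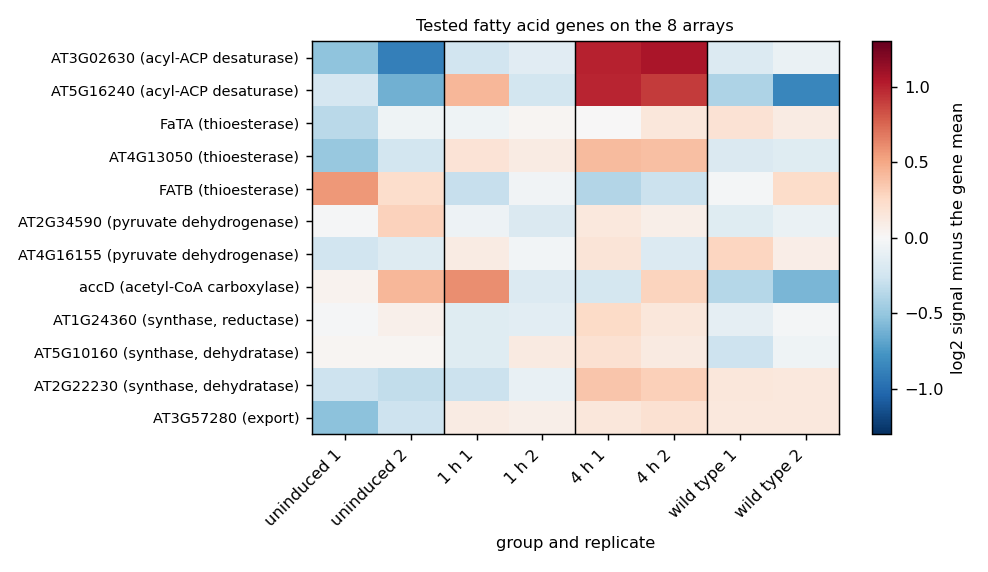
Log2(signal + 45) of the 12 tested fatty acid genes on each of the 8 arrays, minus the mean of the gene; rows are genes with their step, columns are group and replicate, red is above and blue below the mean of the gene. The desaturases AT3G02630 and AT5G16240 are red on both 4 h arrays, FATB is reddest on uninduced replicate 1, and AT3G57280 is blue only on the uninduced arrays.

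The genes whose log2 signals followed each of the 3 most closely were taken from 8137 tested probe sets with a single gene name, by Pearson correlation over the 8 arrays, which share groups, scaling and hybridisation. For AT3G02630 they were the peroxidase AT5G64120 (r = 0.982), AOP3 of the glucosinolate oxygenases (0.981), AT1G26420 of the berberine bridge enzyme family (0.965), the lipid transfer protein family member AT1G62790 (0.964) and the lectin AT3G16530 (0.960). AT5G64120 had signals of 1425.5 and 1207.9 uninduced, 2665.5 and 2605 at 1 h, 7268.6 and 6560.9 at 4 h, and 2216.6 and 2877.2 in wild type. AT1G62790 went from 870 and 819.4 uninduced to 1343.7 and 1362.5 at 1 h, 3350.8 and 3164.3 at 4 h, and 1767 and 1756.7 in wild type. Both had the pattern of AT3G02630, with the 4 h arrays far above 1 h and wild type. AOP3 was at 514.4 and 463.8 at 4 h, and AT1G26420 at 311.1 and 214.8. On all other arrays AOP3 stood at 8.2 to 84 and AT1G26420 at 2.4 to 37.9, under the lower limit for testing. AOP3 and AT1G26420 thus passed the filter on low signal through the 4 h arrays alone. A probe set tested for that reason is bound to be highest there, so their correlations are weak evidence of likeness.

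For FATB the closest were AT5G13140 (0.966), AT5G16870 (0.960), AT2G47440 (0.956), AT3G11630, a chloroplast peroxiredoxin (0.955), and AT4G17370 (0.946). AT5G13140 was at 1569.4 and 1349.7 uninduced, 904 and 1014.9 at 1 h, 803.2 and 962.4 at 4 h, and 1216.6 and 1353.7 in wild type. For FaTA they were UBP21 (0.988), AT3G49710 (0.983), AT5G50740 (0.960), AT4G10620 (0.959) and GLR1.4 (0.953), of which UBP21 ran from 24.3 on uninduced replicate 1 to 541.4 on 4 h replicate 2. AT3G49710 was at 4.9 to 96.8 on the uninduced and 1 h arrays, under the lower limit for testing. It passed the filter through the 4 h and wild-type arrays alone, so its correlation is also weak evidence of likeness. These lists were not stable: when any 1 array was left out, 1 to 3 of the 5 genes stayed for AT3G02630, 2 to 3 for FaTA and 0 to 4 for FATB.

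**Figure D5:**
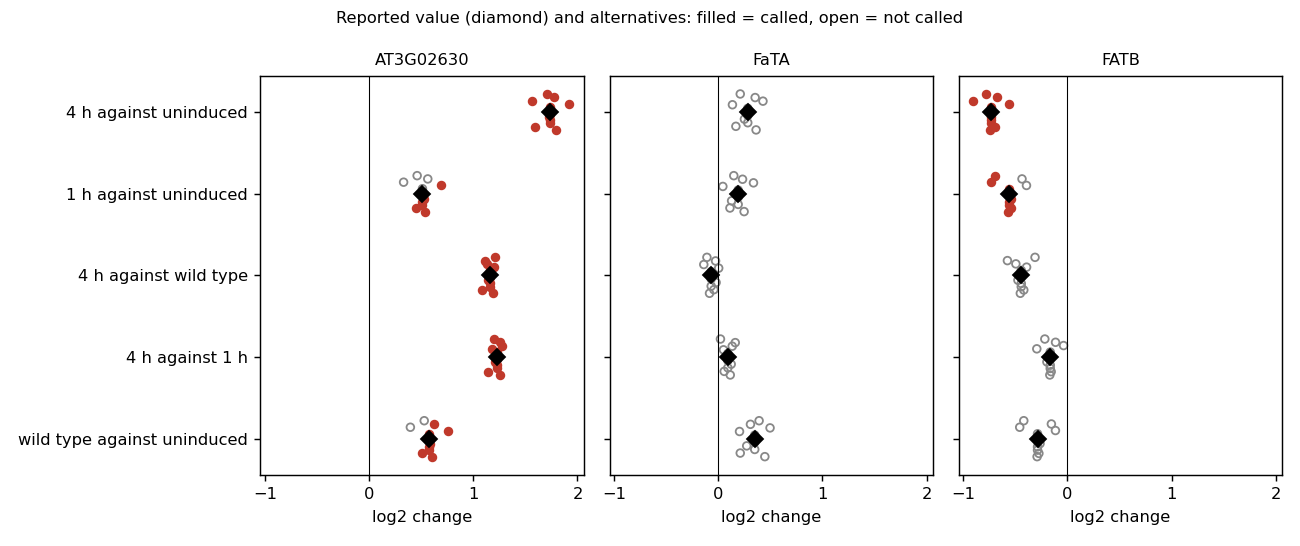
Log2 change of the 3 genes in the 5 comparisons as reported (black diamonds) and under each alternative processing or with 1 array left out (circles; filled where called, open where not). For AT3G02630 at 4 h all circles are filled in all 3 comparisons, while its calls at 1 h and in wild type include open circles, and those of FaTA are all open.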

How the data were processed

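The deposited intensity of a probe set on an array is linear; MAS5 is the tool named, without a version, per the submitters' processing notes. The common trimmed mean of 500.05 (2% trimmed from each end) shows a scaling per array. Instrument records gave scan order, comments, fluidics position, array lot and whether the hybridisation time was filled in. Of 22810 probe sets, 64 controls were left out. Genes come from the platform annotation: 13513 probe sets list 1 gene, of which 13436 matched RefSeq (TAIR10.1, names and gene order only), 503 list several and 8730 are unnamed here. No sequences of genes or probes were used here.

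From these values log2(intensity + 45) was computed, 45 being the 25th percentile of the table. Probe sets above the 40th percentile of their array on at least 2 arrays were tested (15026) in limma 3.58.1 (R 4.3.3; lmFit, eBayes with trend), with all 8 arrays and 1 mean per group (4 residual and 11.2 prior degrees of freedom). The fit was tested on simulated data. The listed accD was matched through the locus tag that RefSeq gives it. The 3 genes and all gene lists were chosen with earlier results of these data known. Genes named are the 3, listed fatty acid genes called at 4 h against wild type, otherwise up to 2 per list with the largest change there, and the 5 most alike in pattern. Precision is limited by 2 arrays per group; p-values measure the spread between samples that the study calls biological replicates. Alternatives changed the pseudocount, the filter, the normalization, the variance model, the samples fitted, the replicate block and the arrays included.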

Additional observations from a re-analysis of the deposited data

How the results depend on the processing

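Under alternative processing, 164 of 175 values for the 3 genes kept their direction and their side of the threshold, 10 lost the call and 1 changed sign. At 1 h against uninduced, AT3G02630 (0.512) and FATB (-0.565) lost their calls without the mean-variance trend (adjusted p = 0.0884 for both), and AT3G02630 (0.512) with only both groups compared in the fit (adjusted p = 0.0857). With 1 array left out, AT3G02630 ranged from 0.331 to 0.694 and FATB from -0.736 to -0.393 at 1 h, AT3G02630 from 0.396 to 0.759 in wild type against uninduced, and FaTA from -0.139 to 0.004 at 4 h against wild type. Counts of called probe sets then ranged from 498 to 632 (reported 996) for 4 h against wild type, 1835 to 2545 (2957) for 4 h against 1 h and 2947 to 3726 (4679) for wild type against uninduced. Whether these lower counts come from the smaller number of arrays or from the particular array left out was not tested. For the other 9 tested fatty acid genes, 475 of 530 values kept direction and side, 46 lost and 1 gained the call. Sign changes came only with an array left out: AT2G34590 at 4 h against uninduced (-0.191 to 0.124), AT5G10160 at 1 h (-0.176 to 0.092), AT4G16155 at 4 h against 1 h (-0.208 to 0.13), AT5G16240 in wild type against uninduced (-0.428 to 0.021), and accD at 4 h against uninduced (-0.467 to 0.055), at 1 h (-0.218 to 0.367) and at 4 h against 1 h (-0.573 to 0.077). accD does not pass the filter at the 60th percentile, nor without either array on which it passed the usual one.

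The replicate numbers pair no samples by label, and replicate deviations of the groups correlated at -0.064 to 0.033. With the replicate block the calls of the 3 genes stood as reported (AT3G02630 at 4 h against wild type 1.16, adjusted p = 0.000341), counts moved from 996 to 992 and from 5354 to 5295, and AT4G13050 lost its calls at 4 h against wild type (0.57, adjusted p = 0.0563) and at 1 h (adjusted p = 0.0535), AT1G24360 that at 4 h against 1 h (adjusted p = 0.0581). FaTA has no value with the filter at the 60th percentile, which it does not reach. Without detection calls, whether its weak signal exceeds background is unknown.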
